A study of Mus musculus with 163 samples.

Results

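Cohesin is the protein ring that holds sister chromatids together, and the genes described here encode its meiotic and mitotic subunits with the factors that load, release and protect it. The set was a list of 9 mouse genes, chosen by name and matched by Entrez identifier: Rec8, Stag3, Smc1b, Smc1a, Smc3, Rad21, Sgo2a, Wapl and Nipbl. Of these, 7 matched 1 of the 21950 genes of the count table, and Smc1a and Smc1b matched no row of it and were not analysed here.

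Each ring is built from a pair of SMC proteins, a kleisin that closes the ring and a Stag subunit. Germ cells replace several mitotic subunits by meiosis-specific ones, SMC1B for SMC1A, REC8 or RAD21L for RAD21, and STAG3 for STAG1 or STAG2. In the mouse oocyte, cohesion is laid down before birth and must hold through the long arrest and growth of the cell, when little of it is thought to be renewed. NIPBL loads cohesin onto chromatin, WAPL opens the ring and releases it, and shugoshin (SGO2) recruits the phosphatase PP2A to shield centromeric REC8 from separase at the first division.

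Transcripts were measured in single oocytes by Smart-seq2, which reads polyadenylated RNA, in 7 groups of growing (GRO) and fully grown (FGO) oocytes. The iPSC oocytes (23 GROs, 24 FGOs) came from 1 female line, BVSC-iPSC, made from adult tail tip fibroblasts and carrying Blimp1-Venus and Stella-ECFP, whose germ cell-like cells were aggregated with gonadal somatic cells of E12.5 Swiss Webster embryos into reconstituted ovaries. Germ cells left among those gonadal cells could also have given oocytes of that group. The gonad oocytes (24 GROs, 24 FGOs) came from dissociated and reaggregated E12.5 gonads, the 6 dpp FGOs (24) from cultured follicles of mice at 6 dpp (days post partum), and the in vivo oocytes (24 GROs, 20 FGOs) directly from mice whose age and strain the labels do not give. Follicular cells and the zona pellucida had been removed from all oocytes. According to the study, GROs from iPSC and from gonads had larger diameters than in vivo GROs. Oocyte size was not taken into account here, and its part in the ratios that use GROs was not tested. Labels name no animal, embryo or culture, so that each group counts as 1 sample and no test was made between groups. Levels are given as counts per 1000000 reads (CPM), pooled over a group with an exact Poisson 95% interval that covers counting error only, or as the lowest, median and highest oocyte. Levels were not scaled to the spike-in RNA that the study added to each lysate. A change in CPM therefore cannot be told apart here from a change of the other transcripts. Each ratio is a log2 value, formed from the pooled CPM of both groups after 0.5 was added to each. Spread means the root of the average variance of log2(CPM + 0.5) over the oocytes of the groups compared. Coordinates are on GRCm38.p6.

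Libraries held 2.17 to 13.7 M (1000000) counted reads, with group medians of 6.66 to 7.16 M reads. All 12 oocyte markers were read in all groups, and their summed median was 56633 to 67963 CPM in GROs and 25273 to 46374 CPM in FGOs. The 10 matched granulosa markers (of 12 listed) summed to medians of 49.5 to 54.2 CPM in GROs and 88.9 to 128 CPM in FGOs. These marker sums thus differed with stage, and their part in the growth ratios was not tested. Over single oocytes the granulosa sum lay between 18.7 and 104 CPM in GROs, and reached 1627 CPM in 6 dpp FGO 12. By median correlation across 14228 genes, in vivo FGO 7 had its closest match in gonad GROs (r = 0.97, and 0.95 with other in vivo FGOs), and gonad FGO 19 had a correlation of 0.89 with its own group.

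The in vivo GROs fell into 2 sets by the numbers in their sample titles, and the set decided several of the results below. Over the same 14228 genes, every one of the 8 oocytes numbered 17 to 24 lay above all 16 numbered 1 to 16 in 678 genes and below all of them in 160, or 5.89% of genes. No other run of up to 8 oocytes (numbers 1 to 8, 9 to 16 or 17 to 24) separated from the rest of its group in more than 8 genes. Oocytes were lysed in strips of 8 tubes, and the labels do not say what the numbers stand for. Library totals overlapped, at 5.84 to 7.53 M reads for numbers 17 to 24 and 5.55 to 7.54 M reads for the others. The cause of the split was not tested, so values by set stand beside those over all in vivo GROs.

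Of the members, Rad21, Nipbl and Wapl followed that split without overlap, and Smc3, Stag3 and Sgo2a did not. Rad21 ranged from 19.8 to 46.6 CPM in numbers 1 to 16 and from 68.2 to 106 CPM in numbers 17 to 24. Nipbl ranged from 22.7 to 45.5 CPM in numbers 1 to 16 and from 56.3 to 124 CPM in numbers 17 to 24. Wapl ranged from 59.0 to 138 CPM in numbers 1 to 16 and from 148 to 258 CPM in numbers 17 to 24. The ratio of the later over the earlier numbers was 1.51 for Rad21, 1.63 for Nipbl and 1.01 for Wapl, against -0.03 for Smc3, -0.22 for Stag3 and 0.20 for Sgo2a. Of the 29 other listed genes of the pathway, these also split without overlap, beside 5.89% of all genes. Higher in the later numbers were the PP2A catalytic subunit genes Ppp2ca (1.72) and Ppp2cb (1.71), Ppp2r5a (0.75), Ppp2r5c (1.28), Ppp2r5e (1.28), Ctcf (0.99) and Pds5b (0.95). The checkpoint kinase gene Bub1 (-0.92) was lower.

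**Figure D1:**
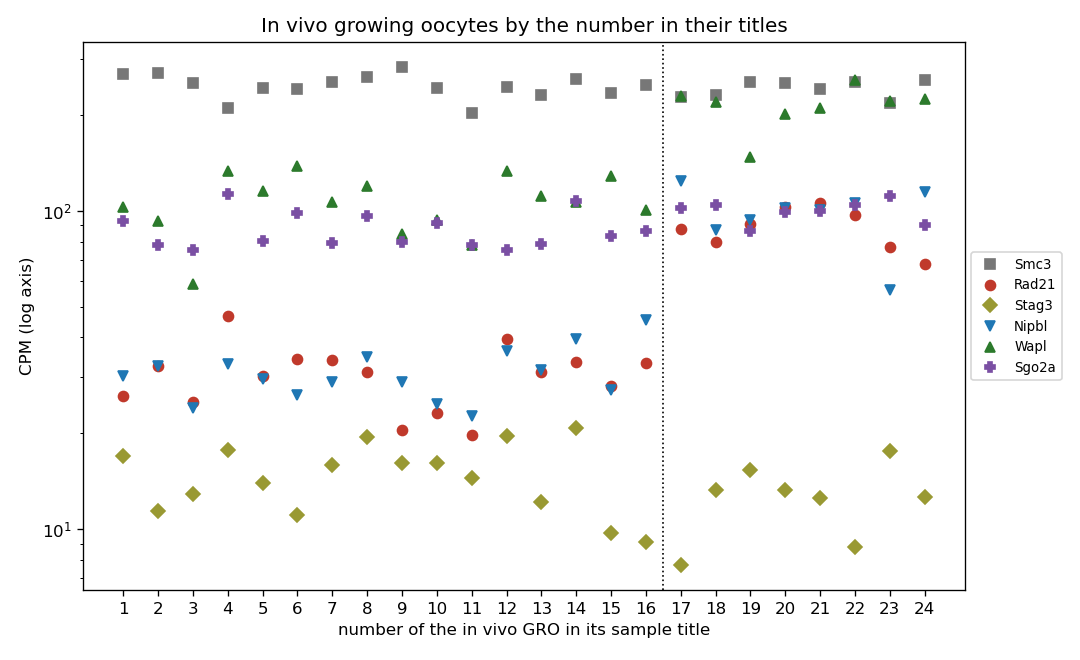
CPM (log axis) of 6 members in each of the 24 in vivo GROs, placed by the number in the sample title, with 1 point per oocyte and gene and a dotted line between numbers 16 and 17. Rad21, Nipbl and Wapl lie higher in every oocyte numbered 17 to 24 than in any numbered 1 to 16, and Smc3, Stag3 and Sgo2a overlap.

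Smc3 (Entrez 13006, chr19:53600396-53645831) encodes the SMC subunit that mitotic and meiotic cohesin share. It was the most abundant member by CPM and, per kb of counted exon, above every other analysed member in all 7 groups, with 31.7 CPM per kb in iPSC GROs, where it was lowest. Smc3 had a lowest, median and highest GRO of 85.4, 196 and 275 CPM from iPSC, 169, 218 and 268 CPM from gonad and 203, 246 and 282 CPM in vivo. Smc3 in FGOs had 259, 377 and 499 CPM from iPSC, 267, 349 and 438 CPM from gonad, 169.5, 411 and 467 CPM from 6 dpp follicles and 183, 267 and 341 CPM in vivo. By pooled Smc3 level, from the highest down, the groups came as 6 dpp FGOs, iPSC FGOs, gonad FGOs, in vivo FGOs, in vivo GROs, gonad GROs, iPSC GROs, and the steps between neighbours were under the spread over oocytes except from gonad FGOs to in vivo FGOs and from in vivo GROs to gonad GROs. Cultured FGOs were thus the highest groups, although 6 dpp FGO 8, at 169.5 CPM, was the lowest FGO of all.

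Between GRO and FGO in culture, Smc3 had a log2 growth ratio (FGO over GRO of 1 source) of 0.93 for iPSC and 0.65 for gonad oocytes. In each case 23 of the 24 FGOs lay above every GRO of their source. In vivo the ratio was 0.11, under the spread over oocytes, with 5 of 20 FGOs above every GRO. It was 0.10 with GROs 1 to 16 alone and 0.13 with GROs 17 to 24 alone, so that the set of in vivo GROs moved it little. After growth in culture from 6 dpp follicles, FGOs held more Smc3 than in vivo FGOs, at 396 CPM (393 to 399.5) and 265 CPM (262 to 268), with 20 of 24 oocytes above every in vivo FGO.

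Rec8 (Entrez 56739, chr14:55618002-55625395), the meiosis-specific kleisin that separase cleaves to part homologues and then sisters, had almost no reads. Over all oocytes of the 7 groups it had 11 reads among 1116 M counted reads, found in 5 oocytes, with at most 5 in 1 of them. Pooled levels were 0 in iPSC GROs and in iPSC and gonad FGOs, and reached 0.0314 CPM (0.0102 to 0.0732) in 6 dpp FGOs. There all reads came from 1 oocyte, 6 dpp FGO 12, which also had the highest granulosa sum (1627 CPM) and theca and stroma sum (816 CPM). In the 3 groups with 0 reads, the upper end of the exact Poisson interval was 0.0222 to 0.0227 CPM. Rec8 did not enter any ratio, since no comparison had 3 oocytes above 1 CPM. The counted length of 2855 bases differs from the 2184 of its longest coding transcript in GENCODE, and how far the choice of 1 transcript per gene set this count was not tested.

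Because the reads of Rec8 were so few, the 250 bases before its start in the RefSeq promoter table are shown beside those of Stag3, the meiosis-specific member that was read, and of Smc3 and Wapl, the members with the highest growth ratios in culture. They are from RefSeq on GRCm38.p6, plus strand, at chr14:55617916-55618165, chr5:138280259-138280508, chr19:53600146-53600395 and chr14:34673678-34673927, and capitals mark a CACGTG E-box or a TTCCCGC E2F-type motif, each searched on both strands. For Rec8, Stag3 and Wapl that start lies inside the full annotated range of the gene.
Rec8: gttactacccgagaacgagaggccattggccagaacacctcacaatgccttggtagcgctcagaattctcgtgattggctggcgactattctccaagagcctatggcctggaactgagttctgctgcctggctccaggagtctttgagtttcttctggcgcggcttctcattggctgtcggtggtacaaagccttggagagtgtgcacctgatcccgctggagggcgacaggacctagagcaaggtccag
Stag3: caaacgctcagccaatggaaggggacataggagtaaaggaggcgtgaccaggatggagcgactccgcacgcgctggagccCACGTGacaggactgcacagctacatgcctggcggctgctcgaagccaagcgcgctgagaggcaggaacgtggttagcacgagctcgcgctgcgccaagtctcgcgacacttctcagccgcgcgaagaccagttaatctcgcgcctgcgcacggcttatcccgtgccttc
Smc3: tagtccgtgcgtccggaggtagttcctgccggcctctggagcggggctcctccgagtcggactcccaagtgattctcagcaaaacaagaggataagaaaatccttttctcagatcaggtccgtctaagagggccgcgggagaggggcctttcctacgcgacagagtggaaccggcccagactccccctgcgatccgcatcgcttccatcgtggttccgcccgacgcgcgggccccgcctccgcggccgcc
Wapl: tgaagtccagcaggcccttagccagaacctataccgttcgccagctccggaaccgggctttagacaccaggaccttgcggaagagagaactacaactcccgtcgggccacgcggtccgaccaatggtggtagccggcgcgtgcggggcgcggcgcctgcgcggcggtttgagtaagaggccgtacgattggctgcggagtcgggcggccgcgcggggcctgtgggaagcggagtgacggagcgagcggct

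Of these 4 sequences only that of Stag3 held a match, a CACGTG that starts 170 bases before the start. That motif is in 6.05% of the same stretch of 27025 genes, and TTCCCGC in 3.84%. Rec8 had 10 CG dinucleotides in the stretch, Stag3 26, Smc3 26 and Wapl 32, against a median of 6 over all promoters. Wapl was the richest in CG of the 4, and 4.39% of promoters had as many, against 38.2% for Rec8. RefSeq promoters were matched for 7 of the 9 members, and Rad21 and Nipbl had no entry. Of the matched members not shown, Sgo2a, read in all groups, had listed starts with 8 and 15 CG, and 43.4% of promoters had at least 8. Smc1a had 16 CG and Smc1b 25, and Smc1b held a TTCCCGC match that starts 48 bases before its start. Whether CG content or these motifs bear on the reads was not tested.

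Rad21 (Entrez 19357, chr15:51962604-51993538) encodes the mitotic kleisin. Rad21 had a lowest, median and highest GRO of 25.6, 32.9 and 40.4 CPM from iPSC, 28.3, 35.7 and 43.7 CPM from gonad and 19.8, 33.8 and 106 CPM in vivo. Rad21 in FGOs had 37.9, 52.4 and 80.6 CPM from iPSC, 38.8, 48.5 and 86.7 CPM from gonad, 45.2, 50.6 and 83.7 CPM from 6 dpp follicles and 30.9, 42.3 and 69.3 CPM in vivo. By pooled Rad21 level, from the highest down, the groups came as 6 dpp FGOs, iPSC FGOs, gonad FGOs, in vivo GROs, in vivo FGOs, gonad GROs, iPSC GROs, and the steps between neighbours were under the spread over oocytes except from in vivo FGOs to gonad GROs. The cultured GROs were low and narrow, the in vivo GROs were wide, and FGO medians lay between those of the 2 sets of in vivo GROs. From GRO to FGO the ratio was 0.71 for iPSC and 0.51 for gonad oocytes, with 22 and 18 of 24 FGOs above every GRO. In vivo it was -0.20 with all GROs, 0.49 with numbers 1 to 16 and -1.02 with numbers 17 to 24, and so changed direction with the set.

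Rad21l, the second meiosis-specific kleisin, was lower in FGOs than in GROs of every source. Its pooled level was 6.88 to 8.57 CPM in GROs and 1.76 to 3.16 CPM in FGOs. The growth ratio was -1.07 in vivo, -1.76 for iPSC and -1.57 for gonad oocytes, and 7 of 20, 22 of 24 and 23 of 24 FGOs lay below every GRO. The in vivo ratio was -1.25 with GROs 1 to 16 and -0.63 with GROs 17 to 24, the latter under 2-fold. Per kb, Rad21l took a median of 33.9% of the 3 kleisin transcripts in iPSC GROs, 26.1% in gonad GROs and 28.6% in in vivo GROs. The FGO medians were 6.06% for iPSC, 6.65% for gonad, 5.32% for 6 dpp and 9.97% for in vivo oocytes. The share in in vivo GROs had a median of 34.3% in numbers 1 to 16 and 10.8% in numbers 17 to 24, so that the latter lay near in vivo FGOs. The median share of Rec8 was 0% in all 7 groups.

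Stag3 (Entrez 50878, chr5:138272514-138312397) encodes the meiosis-specific Stag subunit, and it was highest in GROs. Stag3 had a lowest, median and highest GRO of 9.66, 17.1 and 28.3 CPM from iPSC, 5.45, 12.1 and 17.5 CPM from gonad and 7.70, 13.6 and 20.8 CPM in vivo. Stag3 in FGOs had 3.80, 9.13 and 16.3 CPM from iPSC, 4.74, 8.51 and 18.5 CPM from gonad, 2.42, 7.36 and 12.3 CPM from 6 dpp follicles and 6.37, 11.8 and 17.6 CPM in vivo. By pooled Stag3 level, from the highest down, the groups came as iPSC GROs, in vivo GROs, gonad GROs, in vivo FGOs, iPSC FGOs, gonad FGOs, 6 dpp FGOs, and the steps between neighbours were under the spread over oocytes. The ends of that order, iPSC GROs at 17.7 CPM (17.0 to 18.3) and 6 dpp FGOs at 7.56 CPM (7.14 to 8.00), differed beyond the spread.

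Stag3 was lower in FGOs, with a log2 ratio of -0.86 in the iPSC source, where 15 of 24 FGOs lay below every GRO. That ratio was -0.45 for gonad and -0.24 for in vivo oocytes, the last under the spread over oocytes. With in vivo GROs 1 to 16 alone the in vivo value was -0.30, and -0.09 with GROs 17 to 24. Among FGOs, 6 dpp over in vivo oocytes gave -0.63, with 9 of 24 below every in vivo FGO. Among GROs, iPSC over gonad oocytes gave 0.45, with 11 of 23 above every gonad GRO.

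The mitotic Stag1 and Stag2 had 3.81 to 7.91 and 4.39 to 6.93 CPM. Per kb, Stag3 made up a median of 35.4% of the 3 Stag transcripts in iPSC, 29.0% in gonad and 27.3% in in vivo GROs. In vivo GROs 1 to 16 had 32.3% and numbers 17 to 24 24.4%. In FGOs it made up 18.5%, 20.1%, 12.8% and 23.3% in iPSC, gonad, 6 dpp and in vivo oocytes, so that 6 dpp FGOs had the lowest median. Stag1 and Stag2 were counted over 1261 and 2256 bases, against 6186 and 6171 for the longest coding transcripts, which makes the shares uncertain. Without the length the medians of Stag3 were 34.6% in 6 dpp FGOs and 64.0% in iPSC GROs, the same 2 ends.

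**Figure D2:**
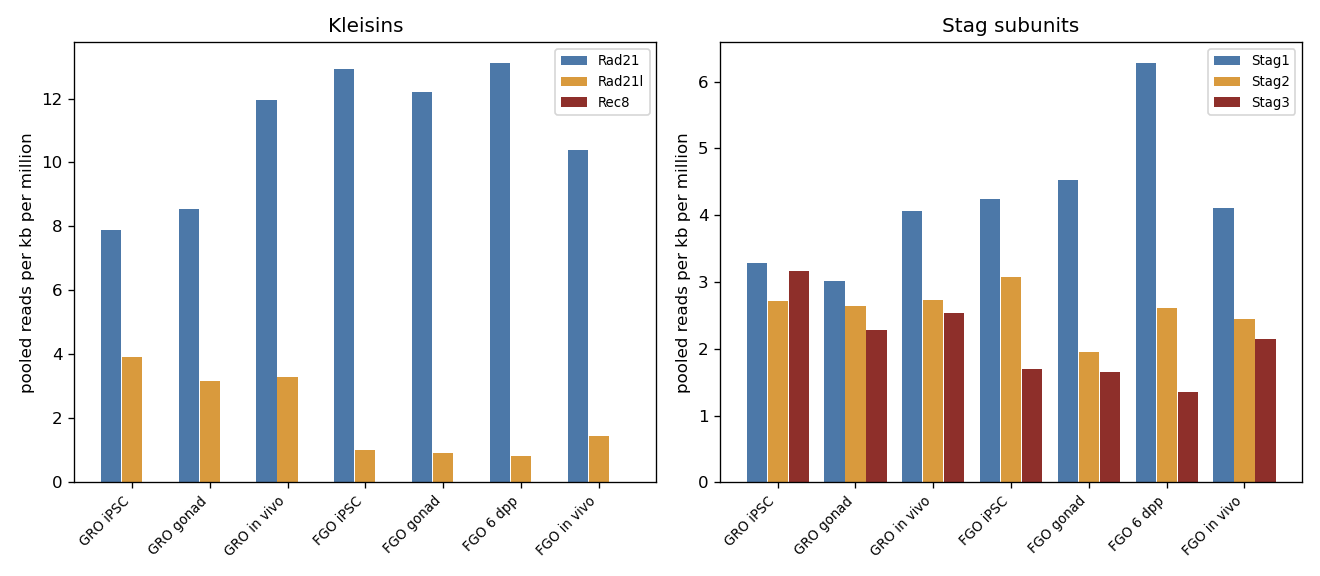
Pooled CPM per kb of the 3 kleisin genes (left) and the 3 Stag genes (right) in the 7 groups, with bars from 0 and no error drawn. Rec8 has no visible bar, Rad21l is lower in all 4 FGO groups than in all 3 GRO groups, and Stag3 is lowest in 6 dpp FGOs.

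Nipbl (Entrez 71175, chr15:8289824-8465315) encodes the cohesin loader. Nipbl had a lowest, median and highest GRO of 17.8, 28.2 and 39.1 CPM from iPSC, 26.1, 33.5 and 39.7 CPM from gonad and 22.7, 33.9 and 124 CPM in vivo. Nipbl in FGOs had 31.1, 44.7 and 63.9 CPM from iPSC, 30.9, 40.7 and 80.1 CPM from gonad, 30.8, 42.9 and 52.8 CPM from 6 dpp follicles and 26.6, 34.9 and 56.9 CPM in vivo. By pooled Nipbl level, from the highest down, the groups came as in vivo GROs, iPSC FGOs, 6 dpp FGOs, gonad FGOs, in vivo FGOs, gonad GROs, iPSC GROs, and the steps between neighbours were under the spread over oocytes except from gonad GROs to iPSC GROs. As for Rad21, the wide range of in vivo GROs came from numbers 17 to 24. Growth gave ratios of 0.63 for iPSC and 0.36 for gonad oocytes, with 19 and 13 of 24 FGOs above every GRO. In vivo the ratio was -0.58 with all GROs, 0.18 with numbers 1 to 16 and -1.44 with numbers 17 to 24. Gonad GROs against in vivo GROs gave -0.68, 0.08 and -1.55 in the same order. Nipbl was counted over 4213 bases of a longest coding transcript of 9423. Mau2, its partner in the loader, had 72.5 to 120.2 CPM and no ratio of 2-fold.

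Wapl (Entrez 218914, chr14:34672379-34747983), the gene of the release factor, had the largest growth ratio of any member with all GROs, in the iPSC source. Wapl had a lowest, median and highest GRO of 59.1, 97.7 and 129 CPM from iPSC, 110.3, 152 and 249 CPM from gonad and 59.0, 124 and 258 CPM in vivo. Wapl in FGOs had 173, 244 and 321 CPM from iPSC, 185, 236 and 633 CPM from gonad, 205, 241 and 304 CPM from 6 dpp follicles and 126, 208 and 257 CPM in vivo. By pooled Wapl level, from the highest down, the groups came as gonad FGOs, iPSC FGOs, 6 dpp FGOs, in vivo FGOs, gonad GROs, in vivo GROs, iPSC GROs, and the steps between neighbours were under the spread over oocytes except from 6 dpp FGOs to in vivo FGOs. All 24 iPSC FGOs lay above all 23 iPSC GROs, and gonad FGO 19, at 633 CPM, was the highest oocyte of all.

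Pooled Wapl was 98.9 CPM (97.4 to 100.4) in iPSC GROs and 245 CPM (243 to 248) in iPSC FGOs, a log2 ratio of 1.31. For gonad oocytes the ratio was 0.65 (0.56 without FGO 19), with 8 of 24 FGOs above every GRO. Of those 8, 7 were numbered 17 to 24 and 1 was not. The 8 gonad FGOs numbered 17 to 24 had 223 to 633 CPM, and the 16 numbered 1 to 16 had 185 to 268 CPM. Without gonad FGOs 17 to 24 the ratio was 0.39. In vivo it was 0.48 with all GROs. With numbers 1 to 16 alone it was 0.90, with 18 of 20 FGOs above every GRO, and with numbers 17 to 24 alone -0.11.

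Among GROs, iPSC oocytes held less Wapl than gonad ones, with a ratio of -0.78 and 16 of 23 below every gonad GRO. Among FGOs of these sources the ratio was -0.13, and 0.14 without gonad FGOs 17 to 24, under the spread over oocytes. Whether the source effect differed between the stages was not tested. Gonad against in vivo GROs gave 0.26 with all in vivo GROs, 0.68 with numbers 1 to 16 and -0.33 with numbers 17 to 24.

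The ratio of Wapl to Nipbl within a library does not depend on the library total, and was computed after the values above were seen. Its median on the log2 scale was 1.79 in iPSC, 2.23 in gonad and 1.64 in in vivo GROs. In vivo GROs 1 to 16 had a median of 1.78, near that of iPSC GROs, and numbers 17 to 24 one of 1.02. It was 2.43 in iPSC, 2.55 in gonad, 2.49 in 6 dpp and 2.51 in in vivo FGOs. All 4 FGO medians thus lay above all 3 GRO medians, while single oocytes overlapped, with a highest GRO of 3.00 and a lowest FGO of 1.88.

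**Figure D3:**
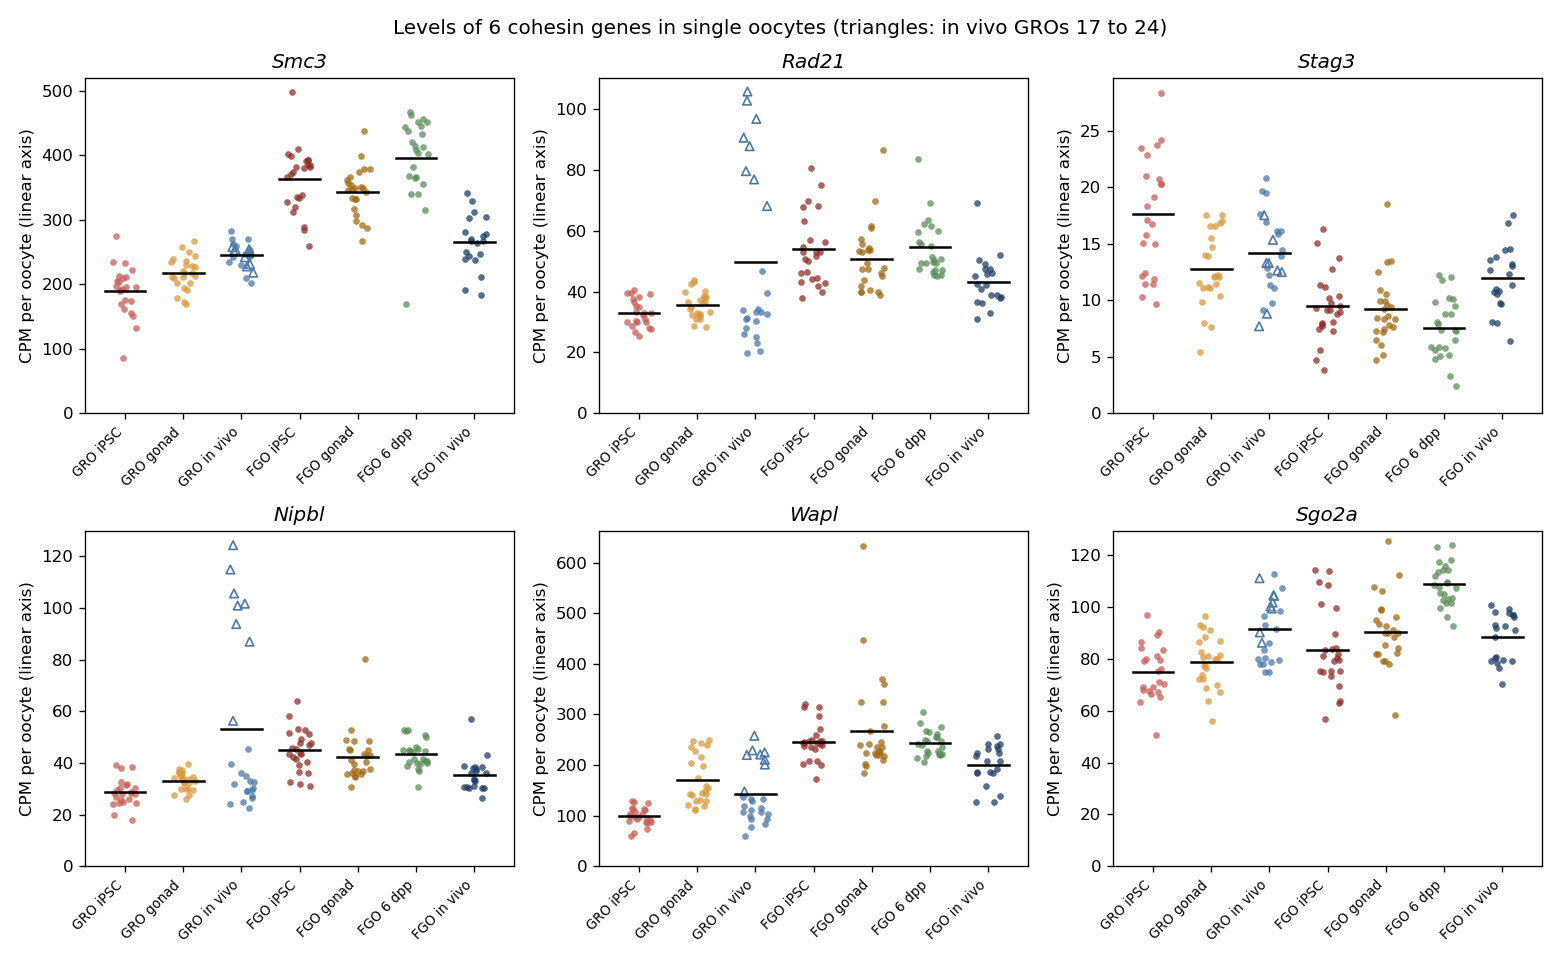
CPM (linear axes) of 6 members in every oocyte by group, with 1 point per oocyte, black lines at the pooled level and triangles for in vivo GROs 17 to 24. All iPSC FGOs lie above all iPSC GROs for Wapl, and the triangles lie above the other in vivo GROs for Rad21, Nipbl and Wapl.

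Sgo2a (Entrez 68549, chr1:57985340-58026277) encodes the shugoshin that protects centromeric cohesin, and with all GROs its growth ratios were the smallest in size of the members'. Sgo2a had a lowest, median and highest GRO of 50.8, 75.2 and 97.0 CPM from iPSC, 55.9, 80.0 and 96.5 CPM from gonad and 75.04, 90.7 and 113 CPM in vivo. Sgo2a in FGOs had 56.8, 80.7 and 114 CPM from iPSC, 58.3, 90.0 and 125 CPM from gonad, 92.5, 108 and 124 CPM from 6 dpp follicles and 70.2, 91.6 and 101 CPM in vivo. By pooled Sgo2a level, from the highest down, the groups came as 6 dpp FGOs, in vivo GROs, gonad FGOs, in vivo FGOs, iPSC FGOs, gonad GROs, iPSC GROs, and the steps between neighbours were under the spread over oocytes except from 6 dpp FGOs to in vivo GROs. Growth ratios were -0.05 in vivo, 0.16 for iPSC and 0.19 for gonad oocytes, all under the spread over oocytes. The in vivo one was 0.02 with GROs 1 to 16 and -0.17 with GROs 17 to 24, where Smc3, Stag3 and Wapl had smaller ones. The 6 dpp FGOs were the highest group, at 109 CPM (107 to 110.3), and 21 of 24 lay above every in vivo FGO, with a ratio of 0.29. Gonad over 6 dpp FGOs gave -0.27, with 14 of 24 below every 6 dpp FGO. Somatic markers were also higher in the 6 dpp group, with a median granulosa sum of 128 CPM, against 119 in vivo and 116 from gonad. The median theca and stroma sum was 14.5 CPM, against 6.22 and 4.90, and the median cumulus sum 1.91 CPM, against 0.824 and 0.574. Their part in the ratios of 6 dpp FGOs was not tested. Without 6 dpp FGO 12, which had the highest granulosa and theca sums, the Sgo2a ratio to in vivo FGOs was 0.29.

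Its paralog Sgo2b had a far larger growth ratio, the largest of the pathway. Sgo2b had a lowest, median and highest GRO of 0, 1.29 and 5.74 CPM from iPSC, 0.369, 2.90 and 22.9 CPM from gonad and 0, 1.36 and 7.17 CPM in vivo. Sgo2b in FGOs had 24.8, 44.9 and 68.4 CPM from iPSC, 31.8, 49.5 and 88.7 CPM from gonad, 39.0, 51.0 and 88.7 CPM from 6 dpp follicles and 1.47, 44.9 and 51.9 CPM in vivo. FGOs did not overlap GROs in either cultured series, and in vivo a single oocyte, in vivo FGO 7 at 1.47 CPM, lay within the GRO range.

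The growth ratio of Sgo2b was 4.04 in vivo, 4.21 for iPSC and 3.35 for gonad oocytes. The in vivo one was 4.11 with GROs 1 to 16 and 3.91 with GROs 17 to 24. At the GRO stage, gonad oocytes had 4.49 CPM (4.16 to 4.83), against 1.90 CPM (1.70 to 2.13) in iPSC and 1.91 CPM (1.70 to 2.13) in in vivo GROs. Gonad GROs 23 and 24 had 22.9 and 15.8 CPM, and every other gonad GRO had at most 8.92 CPM. The pooled level without these oocytes was not computed. The median of Sgo2a over Sgo2b within a library, on the log2 scale, was 5.51 in in vivo GROs (5.43 in numbers 1 to 16 and 6.20 in numbers 17 to 24) and 1.04 in in vivo FGOs. Only uniquely mapped reads were counted, so the levels of these paralogs are uncertain where their sequences match. Sgo1, the other shugoshin gene, had 53.0 to 62.1 CPM in GROs and 83.0 to 98.1 CPM in FGOs.

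Set beside all genes, 6 of the 7 analysed members passed the filter of more than 1 CPM in at least 3 oocytes in each of the 8 comparisons, and only 1 member in 1 comparison, Wapl in iPSC growth, was at least 2-fold apart. In iPSC growth 6.69% of tested genes were at least 2-fold higher and 15.3% at least 2-fold lower, and the groups did not overlap for 8.01%, among the members for Wapl alone. The members' median ratio was 0.67 and that of all tested genes -0.11. In gonad growth 0 of 6 members were 2-fold apart, against 5.82% higher, 9.98% lower and 3.98% without overlap, with a members' median of 0.43 against -0.05. In growth in vivo 0 of 6 were 2-fold apart, against 10.4% higher, 13.2% lower and 3.45% without overlap, with medians of -0.12 and -0.11.

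The members' median in growth in vivo was 0.14 with in vivo GROs 1 to 16 alone and -0.14 with GROs 17 to 24 alone, beside -0.05 and -0.11 for all tested genes. With GROs 17 to 24 alone, Rad21 and Nipbl were more than 2-fold lower in FGOs, where 17.7% of tested genes were. In 5 of 6 members both cultured growth ratios lay above the in vivo one when all GROs were used, as in 11 of the 29 other pathway genes, 3 of 9 genes of other SMC complexes and 37.2% of all genes tested in all 3. With GROs 1 to 16 alone that held for 32.9% of all tested genes and for 4 of 6 members, Smc3, Rad21, Sgo2a and Nipbl, although for Rad21 the in vivo 0.49 then came close to the gonad 0.51, and Wapl at 0.90 in vivo lay above its gonad ratio. With GROs 17 to 24 alone it held for 5 of 6 and 38.6% of all tested genes. Without gonad FGOs 17 to 24 the gonad ratio of Wapl, 0.39, lay below its in vivo ratio over all GROs. Whether the sources differed in these ratios was not tested.

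In each of the 5 comparisons of sources within a stage, 0 of 6 members were at least 2-fold apart and all 6 overlapped. For iPSC over gonad GROs (germ cells derived in vitro or taken from embryos), 1.98% of tested genes were at least 2-fold higher, 1.75% lower and 0.365% without overlap. For the same sources at the FGO stage, 2.19% of tested genes were at least 2-fold higher, 3.74% lower and 0.464% without overlap. For gonad over in vivo GROs (oocytes differentiated in vitro or in the mouse), 4.18% of tested genes were at least 2-fold higher, 2.7% lower and 0.127% without overlap. The members that came nearest were Wapl at -0.78 in the first and Nipbl at -0.68 in the last of these. For gonad over 6 dpp FGOs, 1.58% of tested genes were at least 2-fold higher, 0.95% lower and 0.00736% without overlap. For 6 dpp over in vivo FGOs (follicles grown in vitro or in the mouse), 1.22% of tested genes were at least 2-fold higher, 2.97% lower and 0.302% without overlap. In the last, Smc3, Rad21, Sgo2a, Wapl and Nipbl all had positive ratios of 0.29 to 0.58 and Stag3 a negative one. Leaving out in vivo FGO 7 moved these 6 ratios to between -0.62 and 0.57. Other alternatives moved some of them further. Over all alternatives run, the lowest ratio of Wapl was 0.18, under its spread over oocytes of 0.24. The lowest ratio of Rad21 was 0.26, and none of the 6 ratios changed sign.

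The comparison of gonad with in vivo GROs again turned on the set of in vivo GROs. With numbers 17 to 24 alone, Rad21 at -1.30 and Nipbl at -1.55 were more than 2-fold lower in gonad GROs, where 9.10% of tested genes were, and with numbers 1 to 16 alone their ratios were 0.21 and 0.08. Smc3 gave -0.18 with the earlier and -0.15 with the later numbers, and Sgo2a -0.14 and -0.34. The share of genes whose groups did not overlap was 0.335% with the earlier and 6.72% with the later numbers. The members' median was -0.19 with all in vivo GROs, beside -0.03 for all tested genes, and -0.03 and -0.34 with the earlier and the later numbers. For iPSC over gonad oocytes it was -0.15 in GROs and 0.06 in FGOs, and for 6 dpp over in vivo FGOs 0.29, beside -0.04 for all tested genes.

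**Figure D4:**
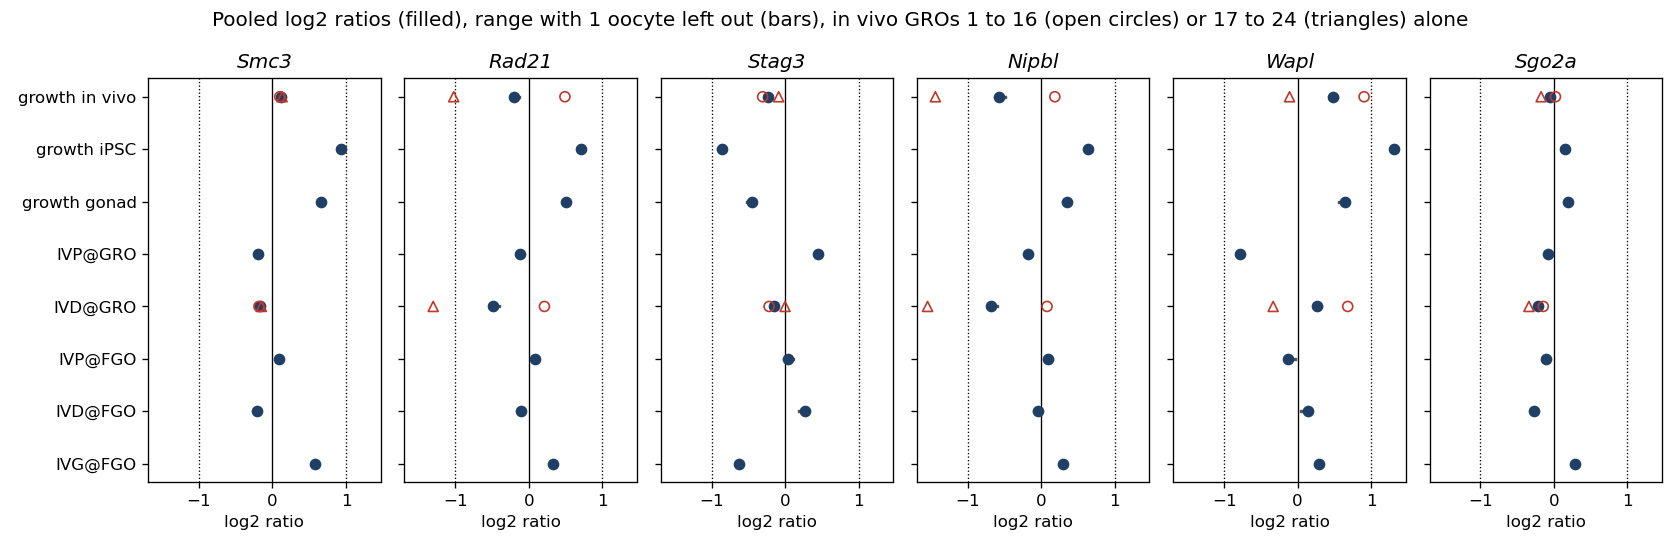
Pooled log2 ratios of 6 members in the 8 comparisons (filled points), with bars for the range when 1 oocyte is left out, open red symbols for in vivo GROs 1 to 16 (circles) or 17 to 24 (triangles) alone, and dotted lines at 2-fold. Wapl in iPSC growth is the one filled point beyond 2-fold, and the red symbols of Rad21 and Nipbl lie on either side of 0.

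The other 29 listed genes of the pathway all had rows and passed the filter in the growth comparisons. In growth in vivo 1 was at least 2-fold higher and 5 lower, where 10.4% of all tested genes were higher and 13.2% lower. In iPSC growth the counts were 1 and 5, where 6.69% were higher and 15.3% lower, and in gonad growth 1 and 3, where 5.82% were higher and 9.98% lower. The counts of lower genes were thus near the background. Sgo2b was the higher one each time, and 3.11% of all genes tested in all 3 were higher in all 3. Of the 29, 3 genes, Rad21l, Pds5a and Ppp2cb, were lower in all 3 sources, as were 6.56% of all genes tested in all 3. With in vivo GROs 17 to 24 alone 2 of 29 were, without Rad21l.

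PDS5 proteins bind the ring and work with WAPL in its release and with the acetyltransferases that stabilise it. Pooled Pds5a was 9.23 to 19.2 CPM in GROs and 2.49 to 5.58 CPM in FGOs, with growth ratios of -1.69 in vivo, -1.75 for iPSC and -1.52 for gonad oocytes. Pds5b gave -1.10 in vivo and -1.12 for iPSC oocytes, and for gonad oocytes a ratio just inside 2-fold. Over growth, Pds5a and Pds5b thus had the opposite sign to Wapl in both cultured series. In vivo, Pds5a gave -1.37 with GROs 1 to 16 and -2.19 with GROs 17 to 24. Pds5b gave -0.71 with GROs 1 to 16 and -1.66 with GROs 17 to 24, so that its 2-fold difference rested on the later numbers.

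Transcripts of the stabilising arm were abundant. Esco2, an acetyltransferase of SMC3, had 609 to 988 CPM, Esco1 164 to 351 CPM and Cdca5, which encodes the WAPL antagonist sororin, 662 to 1047 CPM. Esco1 growth ratios were 0.67 in vivo, 0.85 for iPSC and 0.74 for gonad oocytes, and those of Cdca5 were 0.41 in vivo, 0.60 for iPSC and 0.38 for gonad oocytes. By set, the in vivo ratio of Esco1 was 0.56 with GROs 1 to 16 and 0.91 with GROs 17 to 24, and that of Cdca5 was 0.39 with GROs 1 to 16 and 0.44 with GROs 17 to 24. Esco2 went the other way in culture, at -0.45 for iPSC and -0.42 for gonad oocytes, with 17 and 13 of 24 FGOs below every GRO. In vivo Esco2 gave -0.05, under the spread over oocytes, with -0.13 for GROs 1 to 16 and 0.11 for GROs 17 to 24. Hdac8, the deacetylase of SMC3, had 18.1 to 22.2 CPM. None of these 4 genes was 2-fold apart in any comparison.

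Of the genes for separase and its control, Espl1 (separase) had 124 to 220.1 CPM and Pttg1 (securin, its inhibitor) 1482 to 2138 CPM, the highest level of the listed genes. Meikin, a meiotic kinetochore regulator that helps protect centromeric cohesin, had 27.4 to 48.1 CPM. None was 2-fold apart in any comparison, and Espl1 came nearest in gonad over 6 dpp FGOs at 0.78.

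Among PP2A genes, the catalytic subunit gene Ppp2cb was 2.97 to 6.66 CPM in GROs and 0.172 to 1.08 CPM in FGOs, with growth ratios of -2.18 in vivo, -2.29 for iPSC and -2.37 for gonad oocytes. The in vivo ratio of Ppp2cb depended on the set in size, at -1.37 with GROs 1 to 16 and -3.08 with GROs 17 to 24. Ppp2ca, the other catalytic subunit gene, gave -0.66 in vivo, 0.38 for iPSC and -0.01 for gonad oocytes. The in vivo ratio of Ppp2ca turned direction with the set, at 0.16 with GROs 1 to 16 and -1.56 with GROs 17 to 24. The scaffold gene Ppp2r1b was lower in iPSC FGOs, at -1.42, with all 24 below every GRO. For gonad oocytes it gave -0.71, and in vivo -0.07, under the spread over oocytes. Its in vivo ratio was -0.25 with GROs 1 to 16 and 0.38 with GROs 17 to 24. Of the regulatory subunit genes, Ppp2r5a gave -0.81 for iPSC over gonad FGOs, with 19 of 24 below every gonad FGO, and Ppp2r5e an in vivo growth ratio of -0.52, which was 0.04 with GROs 1 to 16 and -1.24 with GROs 17 to 24. Csnk1d, for a kinase that phosphorylates REC8, had an in vivo growth ratio of -1.16, which was -1.28 with GROs 1 to 16 and -0.88 with GROs 17 to 24, the latter under 2-fold. In culture Csnk1d gave -0.47 for iPSC and -0.36 for gonad oocytes, both under 2-fold and the gonad one under the spread over oocytes.

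At the GRO stage 1 of 29 partners was 2-fold lower in iPSC than gonad GROs, beside 1.75% of tested genes. For gonad over in vivo GROs 1 was higher and 2 lower, beside 4.18% and 2.7%. Sgo2b had -1.05 for iPSC over gonad and 1.05 for gonad over in vivo GROs, both under the spread over oocytes. The second was 1.12 with GROs 1 to 16 and 0.92 with GROs 17 to 24, the latter under 2-fold. Pds5a and Ppp2cb had -1.02 and -1.05 for gonad over in vivo GROs, and -0.69 and -0.24 with numbers 1 to 16, so that both then fell short of 2-fold. With numbers 17 to 24 they had -1.51 and -1.94, and Pds5b at -1.15 and Ppp2ca at -1.40 also passed 2-fold. At the FGO stage 0 of 29 partners were 2-fold apart in any comparison of sources, where 0.95% to 3.74% of tested genes were 2-fold apart in a given direction, so that the count is near the background.

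Of 13 listed genes of the other SMC complexes, condensin and SMC5/6, 9 had rows. At least 2-fold lower were 1 of 9 in growth in vivo, 2 in iPSC growth and 1 in gonad growth, beside 13.2%, 15.3% and 9.98% of tested genes, and 1 in all 3, beside 6.56%. Smc2, the condensin ATPase gene, was lower in FGOs of all 3 sources, with ratios of -1.20 in vivo, -1.38 for iPSC and -1.46 for gonad oocytes. The in vivo one was -1.08 with GROs 1 to 16 and -1.41 with GROs 17 to 24. All 24 gonad FGOs lay below every gonad GRO. Smc5 was lower in iPSC FGOs, at -1.08. In vivo it gave -0.13 with GROs 1 to 16 and was just past 2-fold lower with GROs 17 to 24. The other 7 were within 2-fold in all 8 comparisons with all in vivo GROs.

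**Figure D5:**
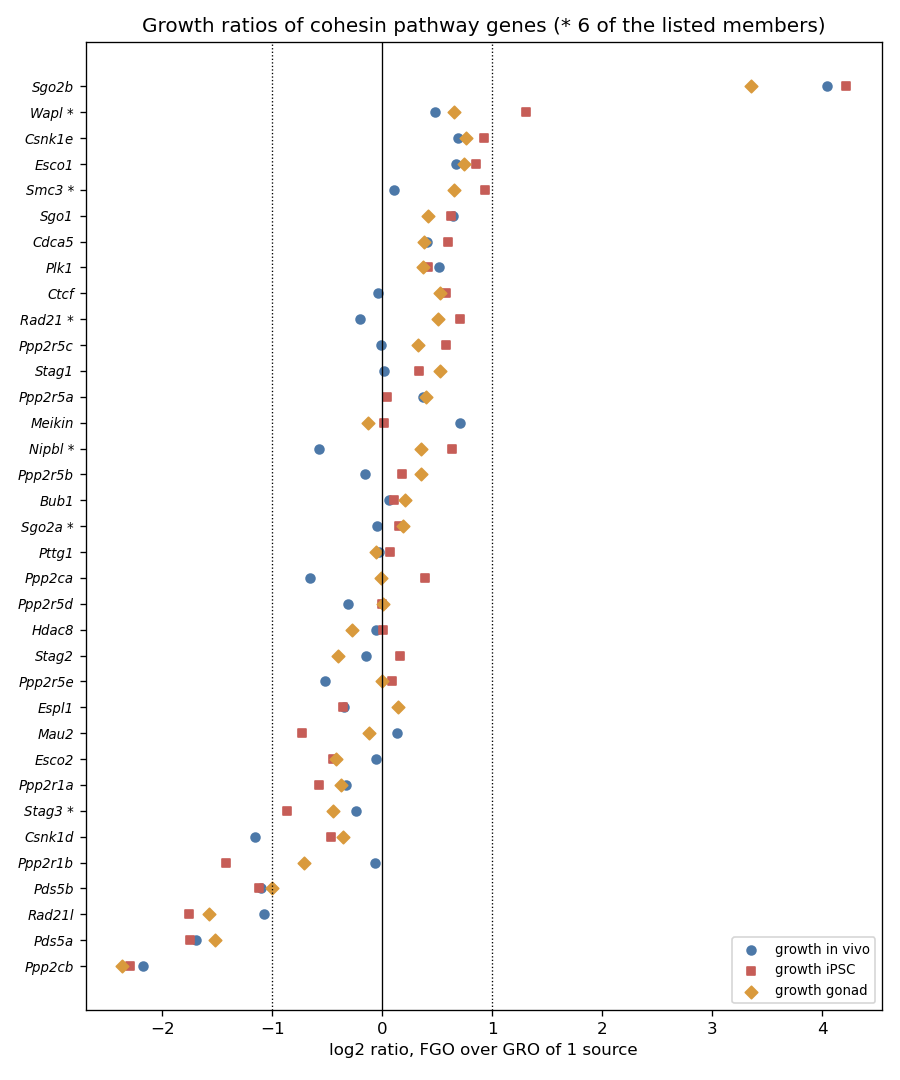
Growth log2 ratios (FGO over GRO of 1 source) of 6 members, marked by asterisks, and 29 further pathway genes, ordered by their mean, with dotted lines at 2-fold. Sgo2b lies far to the right in all 3 sources and Ppp2cb, Pds5a and Rad21l far to the left, while most members lie between the lines.

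Over single oocytes, after each group's mean was subtracted, the highest correlations between members were those of Rad21 with Nipbl (Pearson r = 0.74), Rad21 with Wapl (0.66) and Wapl with Nipbl (0.57), over all oocytes, whose values share a library's total and composition. When the 2 sets of in vivo GROs were centred apart, these were 0.38, 0.47 and 0.31, and that of Smc3 with Nipbl became the highest at 0.54. Within groups, Smc3 with Nipbl lay between 0.02 in in vivo GROs and 0.70 in iPSC GROs. Rad21 with Nipbl lay between -0.25 in gonad GROs and 0.94 in in vivo GROs, and was -0.11 in iPSC GROs. With the 2 sets centred apart, Stag3 had negative values with Rad21 (-0.24), Wapl (-0.23) and Nipbl (-0.17). By group, Stag3 with Rad21 was negative throughout. Stag3 with Nipbl was positive in iPSC (0.18) and gonad GROs (0.11) only, and Stag3 with Wapl in iPSC GROs (0.12) only.

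Among 6230 genes with at least 10 CPM in every group, those whose log2 levels over all oocytes were most like a member's, by Pearson r with no group mean subtracted, were as follows. They were Ccdc186 (0.89) and Snw1 (0.87) for Smc3, Camsap2 (0.84) and Suco (0.83) for Rad21 and Wwc2 (0.85) and Rock1 (0.85) for Nipbl. They were Srrm1 (0.87) and Ryk (0.86) for Wapl, Senp1 (0.71) and Rbm12b2 (0.67) for Sgo2a and Slc25a22 (0.66) and Pnpla6 (0.66) for Stag3. These values hold stage and library set as well as any other source of variation.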

How the data were processed

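RNA of single oocytes was sequenced as single-end reads of 75 bp. According to the study's methods and the labels, the authors aligned reads with STAR to GRCm38/mm10 with spike-in sequences, and deposited raw counts per gene, made with QuasR from uniquely mapped reads over the exons of 1 randomly chosen transcript. Strand use was not stated, so overlapping genes on opposite strands are uncertain. All columns were used, and the study's choice of oocytes by size was not applied. Symbols and coordinates came from RefSeq (GRCm38.p6), with 21907 of 21950 identifiers matched, and the other 43 stayed in the library totals.

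CPM is counts per 1000000 counted reads. Pooled CPM sums the counts of a group over its summed totals, and ratios add a pseudocount of 0.5 CPM, which understates changes of low genes. A gene entered a comparison if 3 or more oocytes exceeded 1 CPM, among all oocytes of that stage or, for growth, among both groups. The size rule was 2-fold, where the study used 4-fold. Spread is the root mean of the 2 groups' variances of log2(CPM + 0.5) over oocytes. Intervals cover counting error only, since the reads carry no molecular identifiers. Over pairs of oocytes within a group the counts differed beyond sampling noise, with a lowest chi-square per gene of 5.26, so none was counted as a duplicate.

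The members, gene lists and tests were chosen with earlier results of these data known. Named were all members, the listed partners of the ring, its loading, release, acetylation and cleavage, listed genes at least 2-fold apart, and the 2 genes most like each member. Bub1, Ctcf, Ppp2ca, Ppp2r5a, Ppp2r5c and Ppp2r5e were chosen after their values were seen. Alternatives chosen after seeing the data left out either set of in vivo GROs, gonad FGO 19, gonad FGOs 17 to 24, in vivo FGOs 5, 7, 19 and 22 together, or 6 dpp FGO 12. The other alternatives were edgeR 4.0.16 TMM library sizes, DESeq2 1.42.0 size factors, in vivo FGO 7 left out, medians over oocytes, a pseudocount of 2 CPM, each oocyte left out in turn, the 4-fold rule, no filter and shares without length. The ratio code was tested on simulated data. Software was Python 3.11.15, numpy 2.4.6, pandas 2.3.3, scipy 1.17.1 and R 4.3.3.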

Additional observations from a re-analysis of the deposited data

How the results depend on the processing

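The count of members at least 2-fold apart in iPSC growth was 1 as reported, 2 with edgeR TMM library sizes and 2 with DESeq2 size factors, where Smc3 joined Wapl, and 0 under the 4-fold rule. With in vivo GROs 1 to 16 left out, that count went from 0 to 2 in growth in vivo and from 0 to 2 for gonad over in vivo GROs, Rad21 and Nipbl each time. Leaving out each oocyte in turn kept the iPSC growth ratio of Wapl between 1.28 and 1.33. Of 384 alternative values of member ratios, 373 moved by less than the spread over oocytes and 11 by more. That spread is over single oocytes, and a pooled ratio can hardly move so far when 1 oocyte is left out. The count is thus a loose bound. In ratios that use in vivo GROs, the 2 sets widen the spread further. Of the 48 ratios, 11 changed sign under at least 1 alternative, none of them a ratio past 2-fold. The median ratio of all genes in iPSC growth was -0.11 by library totals and -0.05 with TMM. With medians over oocytes, which follow the 16 more numerous in vivo GROs, the growth in vivo ratio of Rad21 was 0.32 and that of Nipbl 0.04. Shares of Stag3 and Rad21l depend on counted lengths, which moved 7 of 7 group medians of Stag3 and 2 of 7 of Rad21l by more than the spread. The share of Smc1b among its paralogs was not run, since neither gene matched a row. No paired analysis was possible because no test was made and the numbers do not tie oocytes of different groups to 1 animal or culture. With 1 sample per group, nothing here separates a source or stage from the animals, cultures or library strips behind it.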
